A study of Mus musculus with 14 samples.

Results

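The earliest step of the time course compared mouse lung at embryonic day 12 (E12) with lung at embryonic day 14 (E14). Each age was measured on 2 arrays, so the comparison rests on 4 of the 14 arrays of the series. It was described over 18193 genes, all those with a probe set that carried 1 gene symbol. The lungs came from ICR mice, an outbred strain, after timed mating in which the day of the vaginal plug counted as day 0. The labels name no altered allele and no agent, and by the labels the E12 and E14 groups differed in age alone. Whole lungs were dissected and RNA was taken from pooled lungs, and the number of lungs in a pool is not given in the sources used here. Where nothing says that the replicates were separate pools, each p measures only the spread between these arrays, which may be technical.

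At these ages the lung is a branching tree. Buds of endoderm, the future airway and alveolar epithelium, grow into mesoderm, and the mesoderm sends FGF10 to the bud tips while the epithelium returns SHH. The tips hold dividing progenitors, the stalks behind them begin to take on airway fates, and the mesoderm forms vessels, smooth muscle, cartilage, fibroblasts and the mesothelium that covers the lung.

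Values are deposited log2 levels, so a difference of 1 is a doubling. Differences are E14 minus E12 with their standard error (SE) from limma, an array model in which all 14 arrays share the estimate of the spread. A gene passed where its p, adjusted by the Benjamini-Hochberg procedure over all 45037 probe sets, was under 0.05. Rose, fell, higher and lower are used below of genes that passed. A stricter call also asked for a difference above 1.2 and a higher group mean above 7. In whole lung, a change in the number of cells of a type cannot be told apart from a change in the RNA of each cell.

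The arrays held lung. Nkx2-1, the lung and thyroid endoderm factor, had levels of 7.34 and 7.16 at E12 and 7.75 and 7.77 at E14. Shh lay between 10.64 and 11.10, the endoderm factor Foxa2 between 9.27 and 9.59 and the lung mesenchyme factor Tbx4 between 10.87 and 11.08 over the 4 arrays. None of the 4 genes passed. The label gives the sex as female, yet the Y-linked genes Eif2s3y and Kdm5d lay between 6.66 and 7.59 on all 4 arrays. Their Adult means were 3.23 and 3.24, so the label and these arrays disagree. The dams are described as female. Among organs that lie beside the lung, 0 of 22 heart muscle genes, 0 of 16 skeletal muscle genes and 0 of 8 thymus, thyroid and parathyroid genes passed. Of all genes 3.41% rose and 0.918% fell, so a count of 0 in lists this small is near those shares. The heart muscle differences ran from -0.61 to 1.14. Of 17 liver genes, Apoa1 alone fell (difference -0.53), and of 11 oesophagus and stomach genes, Gata4 alone fell (-0.47). Without E12 replicate 2 the adjusted p of Apoa1 was 0.099, and without E14 replicate 2 that of Gata4 was 0.36. The heart chamber genes Nppa and Myl7 lay at 4.40 to 4.53 and at 8.07 to 8.52 over the 4 arrays, with overlapping groups. Without E12 replicate 1, 3 skeletal muscle genes and 2 liver genes fell.

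Neither the E14 arrays nor the E12 arrays lay equally far from the other age. Of the 620 genes that rose, 508 (81.9%) had a higher level in E14 replicate 2 than in replicate 1. Of the 167 that fell, 37 (22.2%) did, and of all genes 48.0%. At E12, 191 of the genes that rose (30.8%) were higher in replicate 2 than in replicate 1. So were 100 of those that fell (59.9%) and 52.4% of all genes. Across the 18193 genes, the difference between the E14 replicates had a Pearson r of 0.353 with the difference between the E16 and E12 means, which uses none of the same arrays. Genes are not independent replicates, and the r is a description only. Whether the pools differed in age was not tested. The median distance between replicates was 0.122 at E12 and 0.0982 at E14. Of 122 named genes that passed between E12 and E14, 69 did not pass without E14 replicate 2, 56 without E12 replicate 2, 34 without E12 replicate 1 and 25 without E14 replicate 1. The 19 genes named from the strict call as its largest rises and falls passed in each of these fits, and in all 51 of the 122 did. Where an adjusted p without 1 array is given for a gene below, it is the highest of its 4 such fits, and a gene may have lost the call without other arrays too.

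**Figure D1:**
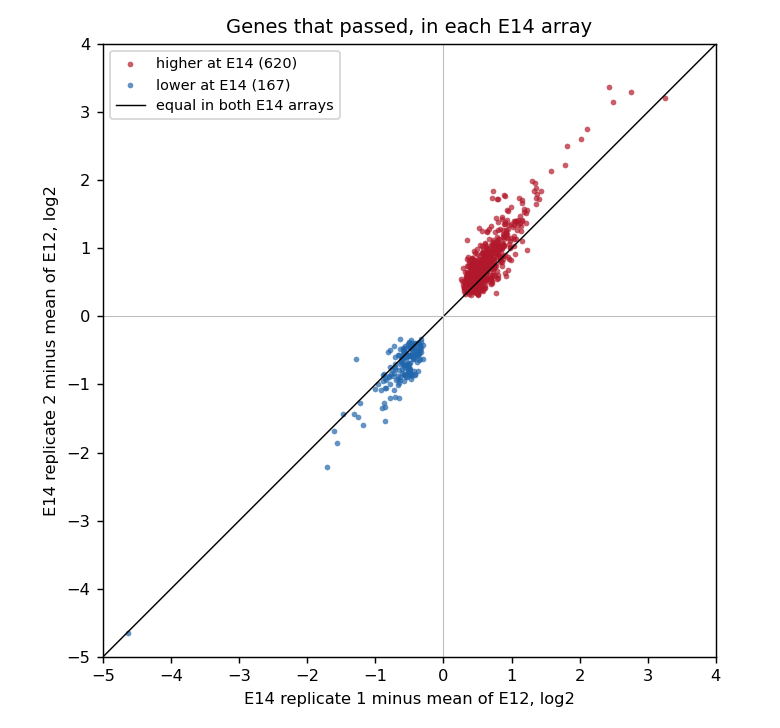
Each point is 1 of the 787 genes that passed, with its level in E14 replicate 1 (horizontal) and in E14 replicate 2 (vertical), both minus the mean of the E12 arrays, in log2 units. Red points rose, blue points fell, and most lie farther from 0 in replicate 2 than in replicate 1.

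In all, 620 genes (3.41%) were higher and 167 genes (0.918%) were lower at E14. The differences of genes that passed were mostly small, with a median size of 0.62, and 99 genes exceeded 1. The stricter call kept 34 higher genes (0.187%) and 5 lower genes (0.0275%). The median over all genes was -0.00098, and 9048 of the 18193 differences were above 0. The levels of the groups did not overlap for 47.1% of all genes, so separation of 2 arrays from 2 is common by itself. The counts were 185 and 24 without E14 replicate 2, and 241 and 46 without E12 replicate 2.

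**Figure D2:**
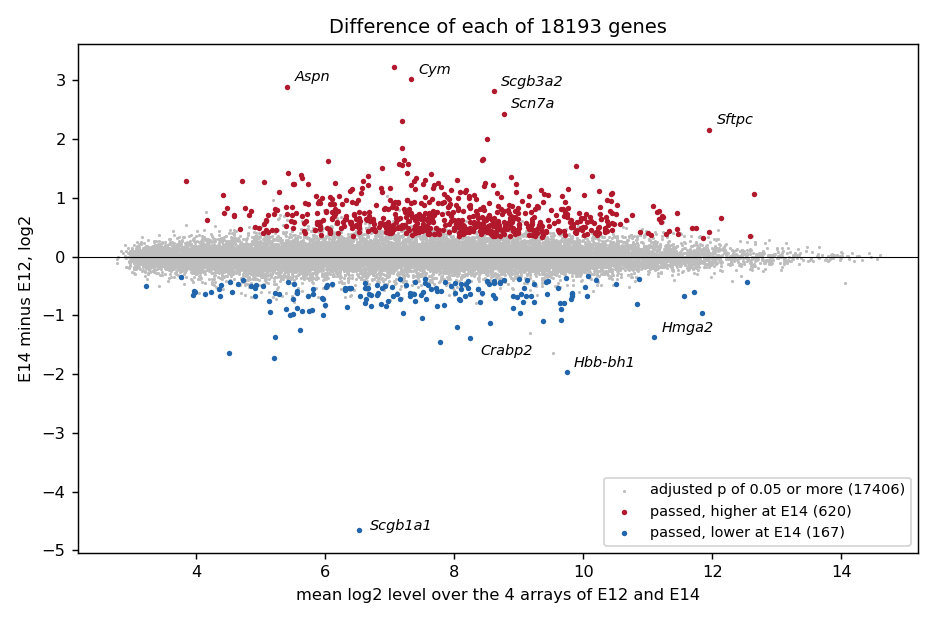
The difference between E14 and E12 (vertical, log2) is drawn against the mean level over the 4 arrays (horizontal, log2) for each of the 18193 genes. Genes that rose (red, 620) outnumber those that fell (blue, 167), and Scgb1a1 lies far below all others at -4.65.

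The 15 largest named rises of the strict call included genes of the airway and distal epithelium and of the stroma. Cym, which encodes the milk-clotting protease chymosin, led the named genes. Its levels were 5.89 and 5.76 at E12 and 8.57 and 9.12 at E14, a difference of 3.02 (SE 0.22, adjusted p = 3.0e-05). The E12 arrays were close to each other and both E14 arrays were far above them. Cym was chosen for its large difference, so this adds no support. Cym stayed at 8.22 and 9.0 at E16 and had a mean of 5.24 at E18.

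Scgb3a2, a small secretoglobin of the airway epithelium, was the second. It measured 7.40 and 7.00 at E12 and 9.69 and 10.35 at E14, 7.05-fold higher (difference 2.82, SE 0.17, adjusted p = 2.5e-05). The rise went on to 12.73 and 12.70 at E16 and to an Adult mean of 14.24. Sftpc, the surfactant protein C precursor that marks distal epithelium and later alveolar type II cells, measured 10.78 and 10.97 at E12. At E14 it measured 12.69 and 13.38, 4.46-fold higher (difference 2.16, SE 0.16, adjusted p = 3.4e-05), and by E16 it stood at 14.34 and 14.30. The groups of both genes were apart by more than their own replicates. Both genes were chosen for their large differences, so this adds no support. One of the 2 Sftpc probe sets passed.

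Other epithelial genes of the strict call were Ctsh, Muc1, Tspan8 and Klf5. Ctsh, a cysteine protease that helps to process surfactant protein, had levels of 7.59 and 7.64 at E12 and 8.96 and 9.58 at E14 (difference 1.66, SE 0.15). Muc1, a membrane mucin of the apical surface, measured 6.44 and 6.34 and then 7.69 and 8.38 (difference 1.64, SE 0.16). Tspan8, a tetraspanin of epithelial membranes, rose by 1.64 in its leading probe set, and 4 of its 5 probe sets passed. All of these rose again between E14 and E16, Ctsh by 2.90 and Muc1 by 1.31.

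The promoters of 3 genes are shown to give the sequence context of a rising apical gene, a rising junction gene and the leading growth-related gene that fell. Of the 39 genes of the strict call, 24 had a promoter in the RefSeq table, build GRCm38.p6, which holds 250 bases before and 50 after a start. Capitals mark matches on either strand to the TATA box letters TATAAA, to the core letters of sites bound by NKX2-1, CTCAAG, or to the core letters of sites bound by GATA factors, AGATAA. No match overlaps another. They were read on the strand of the gene, for Muc1 from chr3:89228806-89229105 (plus strand), for Cldn18 from chr9:99717218-99717517 (minus strand, the farther upstream of 2 starts listed) and for Hmga2 from chr10:120476420-120476719 (minus strand).
Muc1: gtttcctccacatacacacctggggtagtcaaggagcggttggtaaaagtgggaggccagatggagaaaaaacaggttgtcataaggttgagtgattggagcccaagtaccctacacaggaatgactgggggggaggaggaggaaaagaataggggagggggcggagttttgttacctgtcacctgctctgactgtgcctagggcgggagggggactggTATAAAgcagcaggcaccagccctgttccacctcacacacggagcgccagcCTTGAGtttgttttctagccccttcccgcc
Cldn18: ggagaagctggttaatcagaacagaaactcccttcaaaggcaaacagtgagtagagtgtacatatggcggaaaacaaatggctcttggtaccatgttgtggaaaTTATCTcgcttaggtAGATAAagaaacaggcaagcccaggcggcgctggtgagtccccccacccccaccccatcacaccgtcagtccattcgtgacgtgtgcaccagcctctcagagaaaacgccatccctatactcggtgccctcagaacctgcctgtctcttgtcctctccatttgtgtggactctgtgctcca
Hmga2: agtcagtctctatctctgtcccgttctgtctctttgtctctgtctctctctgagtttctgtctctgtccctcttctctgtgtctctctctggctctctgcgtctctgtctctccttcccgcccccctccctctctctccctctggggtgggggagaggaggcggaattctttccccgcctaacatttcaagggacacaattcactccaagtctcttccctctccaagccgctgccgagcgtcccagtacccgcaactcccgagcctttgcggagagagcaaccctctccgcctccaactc
The Muc1 window held TATAAA from 31 bases before the start and CTCAAG on the opposite strand from 21 bases after it. The Cldn18 window held AGATAA on both strands, and the Hmga2 window held none of the 3 motifs. CTCAAG was found in 15.9% of all 32851 promoters of the table, in 14.5% of the 18109 promoters of genes on the arrays, in 14.4% of the 610 of genes that rose, in 16.5% of the 139 of genes that fell and in 20.0% of the 30 of the strict call. TATAAA was found, in the same order, in 13.6%, 9.77%, 11.6%, 15.8% and 26.7% (8 of the 30), and AGATAA in 11.2%, 8.09%, 8.03%, 10.1% and 13.3%. These shares are descriptions with no test. A match is a run of letters and not a bound site.

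The strict call also held stromal and nerve-related genes. Scn7a, a sodium channel family member, measured 7.72 and 7.37 at E12 and 9.65 and 10.30 at E14 (difference 2.43, SE 0.17), and all 3 of its probe sets passed. Ccl11, the eosinophil chemokine eotaxin, measured 6.28 and 5.77 and then 8.05 and 8.63 (difference 2.32, SE 0.22). Tinag, a basement membrane glycoprotein, measured 7.53 and 7.48 and then 9.30 and 9.72 (difference 2.00, SE 0.14). For all of these the lower E14 array lay more than 1 above the higher E12 array. These genes were chosen for their large differences, so this adds no support. Tinag was highest at E16, with 10.50 and 10.59, and Ccl11 fell back to a mean of 6.39 at E18. The rest of the 15 named rises of the strict call were Abcc9, Abca8a, Gfra2, Synm, Anxa1 and Car8, with differences from 1.51 to 1.86. Of these, Abca8a is a lipid transporter, Gfra2 a GDNF family receptor, Synm an intermediate filament protein of muscle, Anxa1 the phospholipid-binding annexin A1 and Car8 a carbonic anhydrase-related protein. Of the 34 strict rises, 31 were higher still at E16 and 25 had an Adult mean above that at E14. Aspn, the matrix proteoglycan asporin, was outside the naming rule and was chosen after its values were seen. It went from 4.12 and 3.81 to 6.39 and 7.33 (difference 2.89, SE 0.26), with a mean that stayed below 7.

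**Figure D3:**
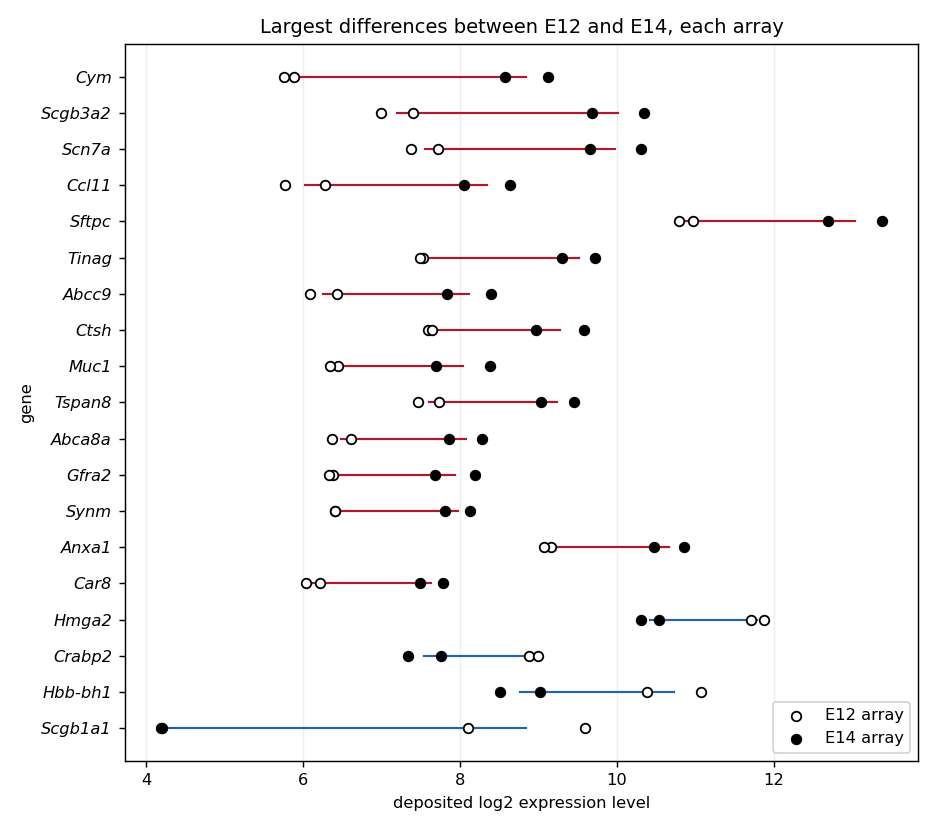
Log2 levels in each array for the 19 named genes of the strict call (15 rises and 4 falls). Open circles are E12 arrays, filled circles E14 arrays, and a line joins the group means (red for rises, blue for falls). The groups do not overlap for any of the 19, which were chosen by the strict call, nor for 47.1% of all genes.

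Scgb1a1 gave the largest difference of any gene. It encodes the secretory protein of club cells, the main secretory cells of the mature airway. Levels were 9.59 and 8.10 at E12, 4.21 and 4.19 at E14 and 11.77 and 8.90 at E16. The fall from E12 was -4.65 (SE 0.64, adjusted p = 0.0015), 25-fold, and it came from 1 probe set. Both E14 arrays were low and alike, whereas the E12 arrays differed by 1.49 and the E16 arrays by 2.87, both far above the median distance between replicates. The adjusted p was 0.060 in the unmoderated test and between 0.0058 and 0.021 when any 1 of the 4 arrays was left out. Scgb1a1 has an Adult mean of 14.95. To see whether other genes of the adult lung moved with it, the 50 genes with the largest rise from E16 to Adult were taken. Their median difference between E14 and E12 was -0.053, 28 of the 50 were higher at E12, and after Scgb1a1 the lowest was Scd1, a fatty acid desaturase, at -1.04. Of the 50, 3 passed as lower at E14, Scgb1a1 among them, and 3 as higher. Whether Scgb1a1 RNA from older lung reached the E12 samples cannot be told from these arrays.

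The remaining strict falls named were Hbb-bh1, Crabp2 and Hmga2. Hbb-bh1, an embryonic beta-type globin of primitive red cells, measured 10.39 and 11.07 at E12 and 9.01 and 8.51 at E14 (difference -1.97, SE 0.24, adjusted p = 0.00061). All 3 of its probe sets fell. Hba-x, the embryonic alpha-type globin, fell by 0.95, and without E14 replicate 2 its adjusted p was 0.22. Of the 3 embryonic globins, 1 fell when any 1 of the 4 arrays was left out. Hbb-y, the other embryonic beta-type globin, measured 14.31 and 14.24 and then 13.87 and 13.79 and did not pass. Hbb-b2, an adult beta globin, rose from 6.02 and 5.94 to 7.2 and 7.50, in 1 of its 2 probe sets, and was named after its values were seen. Globin genes are close copies of one another, and probe sets of the array may read more than 1 of them.

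Hmga2, a chromatin protein of embryonic growth and a known target of let-7 miRNAs, measured 11.70 and 11.87 at E12 and 10.53 and 10.30 at E14. The difference was -1.37 (SE 0.11, adjusted p = 6.7e-05), and all 4 of its probe sets fell. It kept falling, with 8.99 and 9.14 at E16 and an Adult mean of 6.29. It was the one gene of 18 oncofetal let-7 targets and Myc genes that passed. The list had a median of -0.16, and 17 of its 18 differences were below 0. Igf2bp3, an RNA-binding protein of the same list, measured 10.48 and 10.43 at E12 and 10.11 and 9.84 at E14 without passing.

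Of 26 genes for epithelial adhesion and junctions, 9 rose (34.6%, against 3.41% of all genes), 0 fell and 26 of 26 differences were above 0, with a median of 0.34. Cldn18, a claudin of tight junctions in lung and stomach, measured 9.15 and 9.22 at E12 and 10.16 and 10.53 at E14 (difference 1.16, SE 0.11). Cdh1 (E-cadherin), Cldn3 and Krt8 rose by 0.68, 0.67 and 0.56, and without E14 replicate 2 their adjusted p was 0.090, 0.12 and 0.37. The number that rose was 4 without E12 replicate 1, 3 without E12 replicate 2, 6 without E14 replicate 1 and 2 without E14 replicate 2, while the median stayed between 0.29 and 0.37. Of 25 transcription factors of lung epithelium, 6 rose (24.0%) and 0 fell (median 0.30). Klf5, a Krüppel-like factor, went from 6.87 and 6.57 to 7.94 and 8.09. The other Klf5 probe sets did not pass, with differences of 0.04 and 0.04. The brighter of them had means of 6.48 at E12 and 6.52 at E14. Elf5 and Ehf, ETS factors of epithelium, rose by 1.15 and 1.04, and Cebpa, needed for maturation of lung epithelium, by 0.97. The Ehf probe set was dim, with means of 3.89 at E12 and 4.93 at E14. The other Ehf probe sets did not pass, with differences of 0.63, -0.09 and 0.05. Elf5 had an adjusted p of 0.14 without E14 replicate 2. Sox9 of the bud tips and Sox2 of the stalks did not pass, with differences of 0.36 and 0.25. The count of 6 was 3 without E12 replicate 2 and 4 without E14 replicate 2.

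Markers of alveolar and airway cells moved in both directions. Of 15 genes of surfactant and alveolar type II cells, 8 rose (53.3%, against 3.41% of all genes) and 2 fell (13.3%, against 0.918%). Besides Sftpc and Muc1, Lyz1 and Lyz2 (lysozymes) rose by 1.24 and 1.10. The lysozyme genes are close copies, and their probe sets may share signal. Slc34a2, the phosphate transporter of type II cells, measured 6.96 and 6.77 at E12 and 6.06 and 6.35 at E14, a fall of 0.66 on the log2 scale, and Il33, an alarmin cytokine, fell by 0.71. The adjusted p of Slc34a2 was 0.11 without E14 replicate 1 and that of Il33 was 0.094 without E14 replicate 2, as that of Lyz2 was 0.066. Sftpb, Sftpa1 and Sftpd, which encode the other surfactant proteins, did not pass, with differences of 0.54, -0.08 and -0.12. The count of 8 was 5 without E12 replicate 1 and 4 without either E12 replicate 2 or E14 replicate 2, and the 2 falls were 0 without either replicate 1 and 1 without E14 replicate 2.

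Of 11 alveolar type I genes, 4 rose (36.4%, against 3.41% of all genes), namely Emp2 (0.76), Hopx (0.68), Cav1 (0.48) and Akap5 (0.48). The count was 2 without E12 replicate 1 and 1 without either replicate 2, with an adjusted p of 0.13 for Hopx and 0.23 for Cav1 without E14 replicate 2 and of 0.31 for Akap5 without E12 replicate 2. Cav1 is also a gene of endothelium. The type I markers Pdpn, Ager and Aqp5 did not pass, with differences of 0.39, 0.37 and -0.20. Of 14 secretory and club cell genes, Scgb3a2 and Aldh1a7 rose (14.3%) and Scgb1a1 fell (7.14%, against 0.918% of all genes). Thus both secretoglobins that passed moved in opposite directions. Of 16 motile cilia genes Ccno alone rose (0.58), of 12 neuroendocrine genes Ccn3 alone (1.40), and of 11 basal cell and keratin genes none passed. Aldh1a7, Ccno and Ccn3 did not pass without E14 replicate 2 (adjusted p = 0.17, 0.10 and 0.17).

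The gene list with the highest share of rises was that of endothelium and vessels. Of 32 genes, 19 (59.4%, against 3.41% of all genes) rose, 0 fell and 30 differences were above 0, with a median of 0.51. Sox17, an endothelial factor of arteries, measured 7.94 and 7.78 at E12 and 9.0 and 9.12 at E14 (difference 1.2, SE 0.12, adjusted p = 0.00019). Cdh5, the cadherin of endothelial junctions, measured 7.46 and 7.52 and then 8.36 and 8.33 (difference 0.86, SE 0.11). The C-type lectin Clec14a, the receptor Tie1 and the factor Sox18 rose by 0.86, 0.85 and 0.78. In each of these the E14 arrays lay above both E12 arrays. They were taken because they passed and the groups of 47.1% of all genes separate, so this adds no support. The difference of Tie1 lay between 0.72 and 0.98 when 1 array was left out. Flt1, a VEGF receptor, did not pass, with a difference of 0.04. The list had 8 rises without E14 replicate 2 and 12 without E12 replicate 2, and the median stayed between 0.43 and 0.53 when 1 array was left out. The list had a median of 0.18 from E14 to E16 and of 0.65 from E16 to E18. These steps share arrays with one another and are given side by side only. Of 10 lymphatic genes Stab2 alone rose (0.97).

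Of 21 genes of the Notch pathway, which acts in vessels and in airway cell fate, 4 rose and 0 fell. Nrarp, a feedback target of Notch, rose by 0.98, and the targets Heyl and Hey1 and the modifier Lfng rose by 0.67, 0.42 and 0.63. The count was 2 when E12 replicate 1, E12 replicate 2 or E14 replicate 2 was left out. Heyl had an adjusted p of 0.070 without E12 replicate 2, and Lfng and Hey1 had 0.11 and 0.20 without E14 replicate 2. Of 30 guidance cues, 5 rose (16.7%) and 1 fell (3.33%, against 0.918% of all genes). Slit2 (0.94) and Nrp1 (0.55) were among the rises, and Sema3d fell by 0.67. Nrp1 and Sema3d did not pass without E14 replicate 2 (adjusted p = 0.15 and 0.082). The count of 5 was 1 without E12 replicate 1 or E14 replicate 2, 2 without E12 replicate 2 and 3 without E14 replicate 1.

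Matrix and perivascular genes rose in part. Of 24 genes of elastic fibre and interstitial matrix, 10 rose (41.7%, against 3.41% of all genes) and 0 fell (median 0.32). Postn (periostin) measured 8.85 and 8.85 at E12 and 9.72 and 10.12 at E14 (difference 1.07, SE 0.12). Tnc (tenascin C), Ltbp2, Fbln5 and Eln (elastin) rose by 1.22, 1.08, 0.92 and 0.83, and Tnc and Eln did not pass without E14 replicate 2 (adjusted p = 0.26 and 0.28). The count of 10 was 4 without either replicate 2. Of 22 collagen chains, 8 rose (36.4%) and 1 fell (4.55%, against 0.918% of all genes), with a median of 0.24. The 3 chains of collagen VI, a microfibrillar collagen, moved alike, with Col6a3 up by 1.12, Col6a1 by 0.88 and Col6a2 by 0.86. Col4a1 and Col4a2, the basement membrane chains encoded side by side, rose by 0.74 and 0.73. Col1a1 and Col3a1, the main fibrillar chains, did not pass (0.30 and 0.16), and Col26a1 fell by 0.72 (adjusted p = 0.18 without E14 replicate 2). Leaving out any 1 array left 6 to 8 collagen rises.

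Of 19 genes of pericytes and fibroblasts, 7 rose (36.8%, against 3.41% of all genes) and 0 fell (median 0.26). Abcc9 and Kcnj8 encode the parts of a potassium channel of pericytes. Abcc9 went from 6.43 and 6.08 to 7.84 and 8.39 (difference 1.86, SE 0.17), and Kcnj8 from 7.39 and 7.31 to 8.13 and 8.41 (difference 0.92, SE 0.12). Ogn (osteoglycin) and Mfap4 rose by 0.97 and 0.64, Mfap4 with an adjusted p of 0.17 without E14 replicate 2. The count of 7 was 3 without either replicate 2. Of 19 smooth muscle genes Fhl1 alone rose (0.78), while Acta2, the smooth muscle actin, and Myh11 did not pass (0.28 and 0.33). Of 19 airway cartilage genes, Cnmd (chondromodulin), Mia and Matn4 rose (15.8%, against 3.41% of all genes), the first by 1.28. Cnmd and Mia did not pass without E14 replicate 2, nor did Matn4 without E14 replicate 1. Without E12 replicate 2, 1 cartilage gene rose, and without E14 replicate 2, 0 did.

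**Figure D4:**
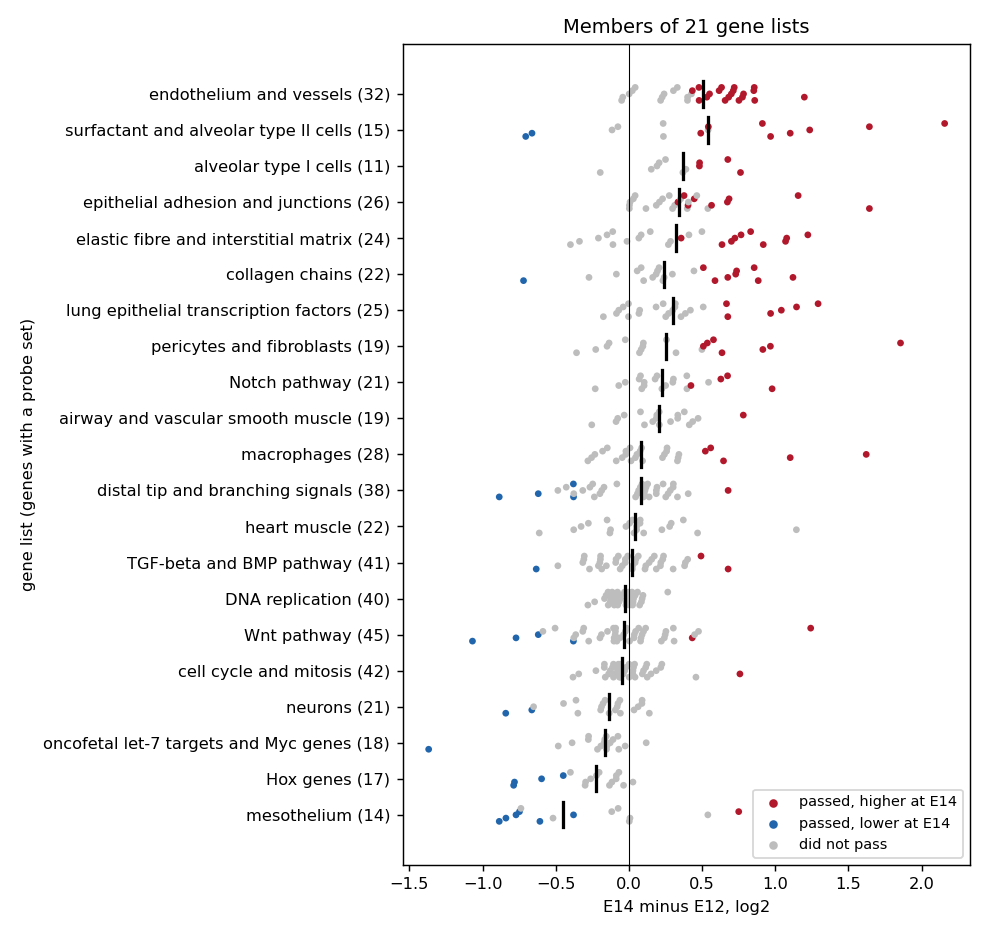
Each point is the difference of 1 gene between E14 and E12 (horizontal, log2) in 21 of the gene lists, with the number of genes in brackets. Red and blue points passed, grey points did not, and black bars are list medians. Endothelium has the largest share of red points. The median of surfactant and alveolar type II cells lies farthest right, and that of mesothelium farthest left.

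Some lists with falls shared genes: Aldh1a2 and Rspo1 each stood in more than 1 of the lists of mesothelium, retinoic acid and Wnt genes. Of 14 mesothelium genes, 6 fell (42.9%, against 0.918% of all genes) and 1 rose (7.14%, against 3.41%), with a median of -0.45. Aldh1a2, the main retinoic acid synthesizing enzyme of the embryo, measured 10.19 and 10.01 at E12 and 9.26 and 9.17 at E14 (difference -0.89, SE 0.16). Rspo1, a Wnt agonist, measured 8.89 and 8.67 and then 8.02 and 8.0 (difference -0.77, SE 0.11). Bnc1 and Lrrn4 fell by 0.84 and 0.75, and Igfbp5 and Fgf9 fell by 0.61 and 0.38. Fgf9 did not pass with a replicate block, with quantile normalization or with the mean of its probe sets. In all 6 the E14 arrays lay below both E12 arrays. The 6 were taken because they passed and the groups of 47.1% of all genes separate, so this adds no support. Msln (mesothelin) went the other way, from 3.78 and 4.33 to 4.72 and 4.88. Wt1, a mesothelial transcription factor, measured 7.68 and 7.05 and then 6.32 and 6.94 and did not pass, and Upk3b, a mesothelial surface protein, differed by -0.52 and did not pass either. The number that fell was 3 without E12 replicate 1, 4 without E12 replicate 2 or E14 replicate 1 and 2 without E14 replicate 2, and the median lay between -0.44 and -0.41 in these fits. Without E14 replicate 2 the adjusted p was 0.095 for Aldh1a2, 0.098 for Bnc1, 0.27 for Lrrn4, 0.057 for Igfbp5, 0.28 for Fgf9 and 0.19 for Msln.

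Of 19 retinoic acid genes, 4 fell (21.1%, against 0.918% of all genes) and 2 rose (10.5%, against 3.41%). Crabp2, which carries retinoic acid to its nuclear receptors, measured 8.88 and 8.99 at E12 and 7.76 and 7.33 at E14 (difference -1.39, SE 0.14, adjusted p = 0.00023). It measured 5.71 and 5.40 at E16. Stra6, the retinol uptake receptor, fell by 0.65 and Rdh10, which oxidizes retinol, by 0.54. The other gene of the list that fell was Aldh1a2. Over the list, 13 genes did not pass, 10 of the 19 differences were above 0 and the median was 0.05. Rarres2, the adipokine chemerin, rose by 1.25, and Aldh1a1 rose by 0.54. The receptor Rarb did not pass (-0.43). Without E14 replicate 2, 1 gene of the list fell and the adjusted p of Stra6 and Rdh10 was 0.13 and 0.080, while Aldh1a1 had 0.33 without E12 replicate 2.

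Of 45 Wnt pathway genes, 4 fell (8.89%, against 0.918% of all genes) and 2 rose (4.44%, near the 3.41% of all genes). The median was -0.04. Rspo2, an agonist made by lung mesenchyme, measured 10.06 and 10.32 at E12 and 9.32 and 8.93 at E14 (difference -1.07, SE 0.23, adjusted p = 0.020). It measured a mean of 6.58 at E16. Sfrp1, a secreted inhibitor, fell by 0.62, and Wnt2, the mesenchymal ligand of early lung, by 0.38. The inhibitor Wif1 rose by 1.24 and the receptor Fzd6 by 0.43. Rspo2, Sfrp1 and Wnt2 did not pass without E14 replicate 2 (adjusted p = 0.24, 0.27 and 0.26), nor did Fzd6 without E12 replicate 2 (0.19). The count of falls was 1 when E12 replicate 1, E12 replicate 2 or E14 replicate 2 was left out.

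Of 17 Hox genes 4 fell (23.5%, against 0.918% of all genes), 0 rose and 16 of the 17 differences were below 0 (median -0.22). Hoxb6 measured 10.01 and 10.05 at E12 and 9.39 and 9.10 at E14 (difference -0.79, SE 0.11). Hoxc4, Hoxb1 and Hoxa4 fell by 0.78, 0.60 and 0.45. Hoxa4 did not pass with a replicate block, with quantile normalization or with the mean of its probe sets. Hoxa5 and Hoxb5, the Hox genes best known in lung, did not pass (-0.20 and -0.04). The count of 4 was 1 without either replicate 2 and 2 without E14 replicate 1. Hoxc4 and Hoxb1 had an adjusted p of 0.33 and 0.11 without E12 replicate 2, and Hoxa4 had 0.24 without E12 replicate 1. Of 21 transcription factors of lung mesenchyme, 3 rose (14.3%, against 3.41% of all genes) and 1 fell (4.76%, against 0.918%). Ebf1, Meox2 and Heyl rose by 0.90, 0.79 and 0.67, and Osr1 fell by 0.65. Ebf1 and Osr1 had an adjusted p of 0.064 and 0.085 without E14 replicate 2.

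Of 38 genes of the distal tip and branching, Tgfb1 rose by 0.68. Aldh1a2, Sfrp1, Wnt2 and Fgf9 fell (10.5%, against 0.918% of all genes), and the list median was 0.08. Each gene that fell also stood in the list of mesothelium or of Wnt genes, so these falls were counted there too. Fgf10 measured 5.95 and 6.17 at E12 and 6.13 and 6.21 at E14, Bmp4 10.10 and 10.04 and then 10.30 and 10.44, and Etv5, a target of FGF signaling, 10.68 and 10.75 and then 10.91 and 10.99. None of the 3 passed. Without E14 replicate 2, 0 of the 38 genes passed, and without either E12 array 1 fell. Tgfb1 had an adjusted p of 0.24 without E12 replicate 2. Of 41 TGF-beta and BMP genes, Tgfb1 and Tgfbr2 rose (4.88%, near the 3.41% of all genes) and Acvr2b fell (2.44%, against 0.918%). The list median was 0.02. With 1 array left out, the differences were as low as 0.55 for Tgfb1 and 0.46 for Tgfbr2. The adjusted p of Tgfbr2 was 0.11 and that of Acvr2b 0.42 without E14 replicate 2.

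Few cell division genes passed, near the shares of all genes (3.41% higher and 0.918% lower). Of 42 genes of the cell cycle and mitosis, Cdkn2c alone passed (2.38%). It encodes an inhibitor of cyclin-dependent kinases and rose by 0.76. Of 40 DNA replication genes 0 passed. The medians were -0.05 and -0.02. Cdkn2c had an adjusted p of 0.20 without E14 replicate 2. Mki67 measured 11.93 and 11.77 at E12 and 12.03 and 11.97 at E14, and Top2a 12.43 and 12.31 and then 12.29 and 12.19. The DNA replication differences ran from -0.28 to 0.27. From E16 to E18 the medians of these lists were -2.47 and -2.10. Of 21 imprinted growth genes 0 passed, with a median of -0.14, and Igf2 had a difference of -0.25. Among 23 glycolysis and hypoxia genes, Egln3, Pdk1 and Pfkp rose by 0.80, 0.74 and 0.71, and the glucose transporter Slc2a3 fell by 0.55. Egln3, Pdk1 and Slc2a3 did not pass without E14 replicate 2 (adjusted p = 0.11, 0.078 and 0.099).

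Blood and nerve markers were mixed. Of 28 macrophage genes 5 rose (17.9%, against 3.41% of all genes) and 0 fell (against 0.918%), with a median of 0.08. They were Lgals3 (1.62), Lyz2 (1.10), Laptm5 (0.65), Mpeg1 (0.56) and Ctss (0.52), of which Lgals3 and Lyz2 are also epithelial genes. The other Laptm5 probe sets did not pass, with differences of 0.18, 0.39, -0.06 and 0.13. Laptm5 also did not pass with the mean of its probe sets or with the probe set highest over E12 and E14. Csf1r, the receptor that defines the lineage, measured 9.39 and 9.52 at E12 and 9.69 and 9.71 at E14 and did not pass, and Ptprc, the leukocyte antigen CD45, had a difference of -0.02. The count of 5 was 1 without either replicate 2 and 3 without E14 replicate 1. Laptm5 and Mpeg1 had an adjusted p of 0.31 and 0.19 without E12 replicate 2, and Ctss had 0.18 without E14 replicate 2. Of 12 lymphocyte genes and of 17 MHC and interferon genes, 0 passed. Of 21 neuronal genes, Isl1 and Nefl fell (9.52%, against 0.918% of all genes) by 0.84 and 0.66 and 0 rose. Neither passed without E14 replicate 2. Of 11 glial genes 0 passed. Of 23 immediate early and heat shock genes, 3 rose, among them Jun (0.52, adjusted p = 0.14 without E12 replicate 2), and 21 differences were above 0. Without either replicate 2, 0 did.

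A turn at E14 was measured as E14 minus the mean of E12 and E16, for genes whose E14 mean lay above or below both. There were 118 peaks (0.649%) and 123 dips (0.676%) with an adjusted p under 0.05. With the limits on difference and level, 2 peaks and 13 dips remained. The peaks were Cym (1.63, SE 0.19) and Akr1c19, an aldo-keto reductase (1.26, SE 0.24). Akr1c19 measured 6.62 and 6.27 at E12, 7.14 and 7.81 at E14 and 6.44 and 5.52 at E16, and did not pass without E12 replicate 2 or without E14 replicate 2. Cym did not differ by test between E14 and E16 (-0.23, adjusted p = 0.55) while it rose from E12.

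The 5 deepest dips were Scgb1a1 (-5.39, SE 0.55), Slc34a2 (-2.23, SE 0.11), Sec14l3 (-1.72, SE 0.12), Retnla (-1.66, SE 0.32) and S100a8 (-1.66, SE 0.21). Sec14l3 is a lipid-binding protein of airway cells, Retnla a resistin-like secreted protein and S100a8 a calcium-binding protein of neutrophils. For each of the 5, the rise from E14 to E16 was larger than the fall from E12 to E14. Slc34a2 rose to 10.18 and 9.81 at E16, and Sec14l3, with overlapping groups at E12 and E14, rose to 9.51 and 9.34. Sec14l3, Retnla and S100a8 did not pass between E12 and E14 (-0.16, -0.38 and -0.54). Only for Scgb1a1 and Slc34a2 among the 5 was E14 also lower than E12 by test. Retnla did not pass as a dip without E12 replicate 2, E14 replicate 1 or E14 replicate 2.

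**Figure D5:**
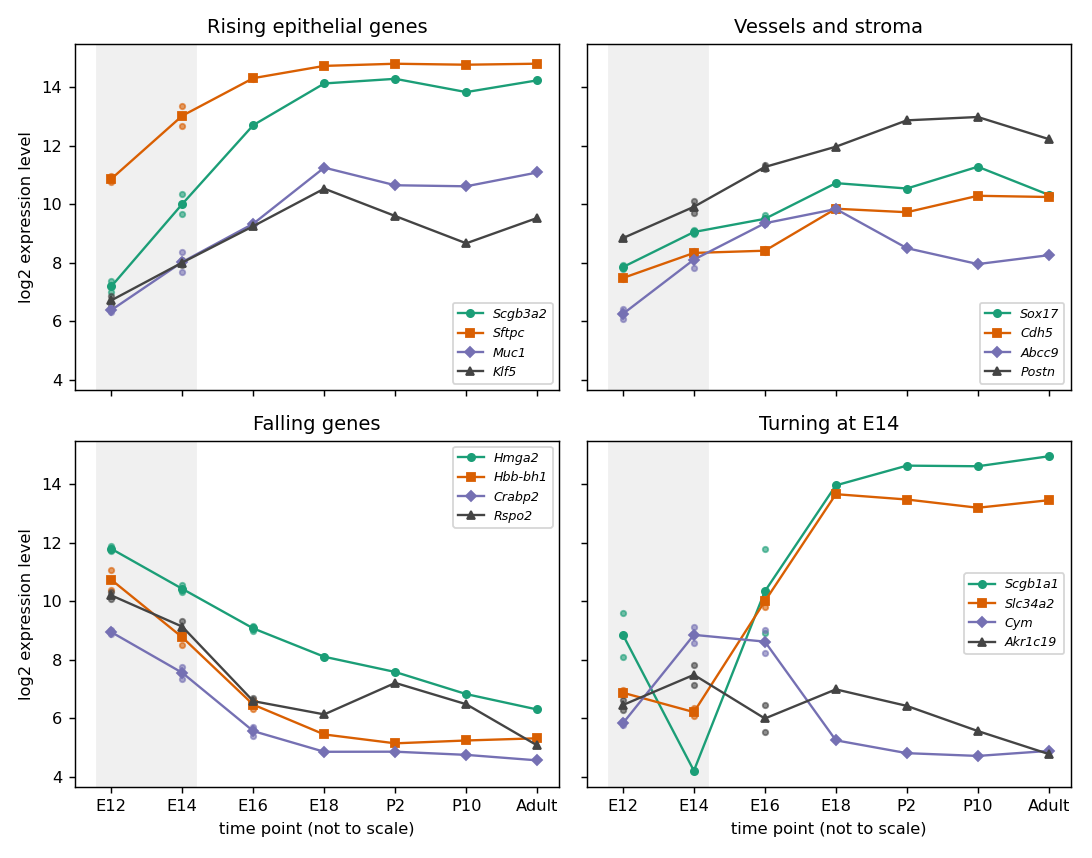
Log2 levels of 16 genes over the 7 time points, as time-point means joined by lines, with both arrays shown as small points at E12, E14 and E16. The shaded band marks E12 and E14. Scgb1a1 alone drops to 4.21 and 4.19 at E14 between high levels on both sides, while the rising and falling genes move on in the same direction to E16.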

How the data were processed

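RNA of ICR mouse lungs had been hybridized to 14 oligonucleotide arrays from Affymetrix, 2 for each of 7 time points. The authors deposited log2 values, normalized in Partek 6.4. RMA is the method given in the published methods and GCRMA the one in the submitters' processing notes, so which of them gave the log2 values is not settled. The 64 control probe sets were left out and 45037 were fitted. Gene names came from the platform annotation (34945 probe sets with 1 symbol, 932 with several, 9160 with none), and a gene was read from whichever of its probe sets had the highest 14-array mean. Probe sets with several symbols or none entered the fit but no count of genes. Depth does not apply to arrays, and the number of arrays limits the precision.

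A mean for each time point was fitted in limma 3.58.1 (R 4.3.3) with moderated statistics (residual df 7, prior df 6.04). The contrasts were E14 minus E12 and E14 minus the mean of E12 and E16. Named were the 15 largest rises and falls of the strict call (all where fewer, clones and predicted genes skipped, which left out Gm13306 and Gm6958), the 5 largest peaks and dips, up to 5 rises and falls that passed in each of 46 gene lists, defining members that did not pass and the highest members of lists of other organs. The members and lists were chosen with earlier results of these data known. The groups shared replicate numbers 1 and 2, and the labels do not say whether these pair the arrays. The contrast script was tested on simulated data. Alternatives were other arrays in the fit, the replicate block, moderation, normalization, filters, the choice of probe set, thresholds and leaving out each array. Promoters were read from a RefSeq table (GRCm38.p6) with Python 3.11.15 and pandas 2.3.3.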

Additional observations from a re-analysis of the deposited data

How the results depend on the processing

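With the 4 arrays of E12 and E14 alone, 346 genes were higher. In the unmoderated test 322 were higher and 62 lower, 3 of them lower under the strict call. The mean of all probe sets of a gene gave 267 lower genes, and a difference above 1 in place of 1.2 gave 66 strict rises and 10 strict falls. Leaving out 1 array gave 185 to 472 higher genes, 24 to 114 lower genes, 18 to 60 strict rises and 4 to 10 strict falls. The lowest of the first 3 ranges was without E14 replicate 2, and the highest of the strict counts without E14 replicate 1. Of the 39 strict genes, 21 were called without E14 replicate 2 and 29 in the unmoderated test.

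Peaks at E14 numbered 42 and dips 72 with the arrays of E12, E14 and E16 alone. In the unmoderated test they numbered 33 and 40, with 0 strict peaks. Peaks numbered 225 with a trend of the spread on level, 188 with a filter on low levels, 215 with 1 probe set per gene and 239 with the mean of probe sets. A difference above 1 gave 20 strict dips. Leaving out 1 array gave 13 to 160 peaks, 38 to 185 dips, 0 to 2 strict peaks and 9 to 27 strict dips, the last without E16 replicate 2.

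Over all refits of named genes under these alternatives, 1506 kept the direction and the side of the threshold, 314 no longer passed and 1 was reversed. Sema3b, a semaphorin, turned to -0.045 (adjusted p = 0.94) with the probe set highest over E12 and E14, against a rise of 0.41. Gfra2 did not pass with that probe set, and Crabp2 did not enter the fit with the filter on low levels.

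The labels do not say whether the replicate numbers pair the arrays. Differences between the replicates had a correlation of -0.06 between E12 and E14. This value alone cannot show whether same-numbered arrays belong together. With the replicate block, 536 genes were higher, 143 lower, 34 strictly higher and 5 strictly lower, and all 39 strict genes stayed. Peaks were 80 and dips 99, with 2 and 13 under the strict call. The cause of these shifts was not tested. Dim probe sets near the floor understate differences, and 2 arrays per age limit every p.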
